A study of Mus musculus with 60 samples.

Results

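The 6 genes described here, Mup1, Mup2, Mup3, Mup7, Mup20 and Mup21, encode major urinary proteins of the mouse. They were selected by symbol from the authors' deposited tables of poly-A RNA, with the fold changes in those tables known, so their differences between genotypes are given as a description. They are 6 of the 49 features named as Mup genes or Mup pseudogenes and of the 55290 named features in each table. The study profiled Ftsj1_DF mice, deficient in the RNA 2'-O-methyltransferase Ftsj1, and wildtype (WT) brothers by sequencing poly-A RNA and rRNA-depleted RNA of whole brain, heart, kidney, liver and spleen. All 6 mice were males of 4 months with free access to food and water and no treatment. A litter of 4 brothers held 2 Ftsj1_DF and 2 WT mice, and a pair of brothers held 1 of each. The allele, its breeding background and whether the controls carry any other change are not stated in the labels. There were 3 poly-A libraries per genotype and organ, and n is 3 against 3 in every comparison below.

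Major urinary proteins are small secreted lipocalins. In the male mouse liver they are among the most abundant transcripts, and the proteins pass through the kidney into urine, where they bind and slowly release volatile pheromones. Their genes lie in a cluster of near-identical copies on chromosome 4. Pulsatile growth hormone, acting through its receptor and STAT5B, keeps many of them high in males, and glucocorticoids and thyroid hormone also act on them. Mup20 encodes darcin, the male pheromone that draws females to scent marks.

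How alike the copies are bears on every value below, because reads from near-identical genes can be shared or misassigned. In the GENCODE M21 transcripts (GRCm38), the coding sequences of Mup1 and Mup2 differ at 3 of 543 aligned bases, and that of Mup7 differs from Mup1 at 6 and from Mup2 at 7. Mup20 is farther from this trio, with 51 differences from Mup7 (90.6% identity). Mup3 and Mup21 resemble each other, with 20 differences over 546 bases, and lie 87 and 86 bases from Mup7. The stretch of 90 coding bases with the most variable positions is printed to show these groups, 5′ to 3′, from base 211 to base 300 of the Mup2 coding sequence, with the 31 positions that vary among the 6 genes in capitals.
Mup1: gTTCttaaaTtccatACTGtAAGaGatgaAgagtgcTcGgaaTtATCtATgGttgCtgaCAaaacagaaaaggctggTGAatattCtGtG
Mup2: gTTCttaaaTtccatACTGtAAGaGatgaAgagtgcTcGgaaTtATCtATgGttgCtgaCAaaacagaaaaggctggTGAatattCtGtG
Mup7: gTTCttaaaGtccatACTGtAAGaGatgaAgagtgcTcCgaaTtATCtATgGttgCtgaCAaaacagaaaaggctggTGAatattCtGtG
Mup20: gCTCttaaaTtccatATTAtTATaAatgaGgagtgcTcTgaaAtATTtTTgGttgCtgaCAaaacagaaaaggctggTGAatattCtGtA
Mup21: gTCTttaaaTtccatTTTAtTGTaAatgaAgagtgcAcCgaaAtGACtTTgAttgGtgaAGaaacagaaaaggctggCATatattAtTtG
Mup3: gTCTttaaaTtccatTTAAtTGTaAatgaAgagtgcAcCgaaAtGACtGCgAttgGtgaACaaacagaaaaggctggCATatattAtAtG

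Mup1 and Mup2 cannot be told apart in this stretch, and Mup7 differs from both at 2 of its bases. Mup20 differs from Mup7 at 13 bases and Mup3 from Mup21 at 5. Of all distinct stretches of 100 bases in the annotated transcripts of a gene, 97.8% in Mup3 and 95.5% in Mup21 were found in no other of the 49 annotated Mup genes. The same share was 61.2% in Mup20, 44.3% in Mup1, 24.5% in Mup2 and 23.9% in Mup7. Values of Mup1, Mup2 and Mup7 as single genes are therefore less certain than those of Mup3 and Mup21, and the labels do not say how reads that match several genes were counted.

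RefSeq promoter windows, which run from 250 bases before to 50 after the annotated start, were matched for 4 of the 6 genes (Mup2, Mup3, Mup7 and Mup21). The part of each window that the 4 genes share is printed because these flanking sequences fall into the same groups as the coding sequences. It is given 5′ to 3′ on the minus strand of GRCm38.p6, a different build from the GRCm39 of the deposited tables, and capitals mark bases that differ from Mup2 in an alignment or have no partner there.
Mup2, chr4:60139997-60140106: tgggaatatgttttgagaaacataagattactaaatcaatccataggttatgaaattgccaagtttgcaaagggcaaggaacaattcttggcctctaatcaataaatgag
Mup7, chr4:60070482-60070591: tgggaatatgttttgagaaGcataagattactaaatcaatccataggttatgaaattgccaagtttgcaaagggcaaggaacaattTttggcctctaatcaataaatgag
Mup3, chr4:62087404-62087513: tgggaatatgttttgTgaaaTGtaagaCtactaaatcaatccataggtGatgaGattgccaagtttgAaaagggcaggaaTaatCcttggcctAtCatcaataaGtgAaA
Mup21, chr4:62150922-62151031: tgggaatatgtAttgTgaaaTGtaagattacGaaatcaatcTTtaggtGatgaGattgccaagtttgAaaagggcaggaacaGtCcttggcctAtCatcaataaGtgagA

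Over these 110 bases Mup7 differed from Mup2 at 2 positions, Mup3 at 14 and Mup21 at 16. In Mup3 and Mup21 1 of these is an added base, and each also lacks 1 base of Mup2, which no letter marks. The stretch ends 7 bases before the annotated start in Mup7 and 141 bases before it in Mup2, so the annotated starts do not mark homologous positions. Motifs were counted on both strands of the whole window of 300 bases, overlaps allowed. The letters ATCAATA, a core recognised by Onecut factors, occurred once in all 4 windows, against 2.08% of 27025 mouse promoters with a match. The TATA-box letters TATATAA occurred once in Mup2, Mup3 and Mup21 and were not in the Mup7 window, against 3.46% of promoters. Because of the shifted starts, the Mup7 window does not reach the bases that lie nearest the annotated start in Mup2. A motif missing from a window is therefore not shown to be missing from that promoter. TTCNNNGAA, the palindrome bound by STAT5 dimers, was in none of the 4 windows (8.47% of promoters), and TGTTCT, an arm of the element bound by the glucocorticoid receptor, was in Mup3 and Mup21 (19.0% of promoters).

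The deposited tables hold a mean level per gene over the 6 libraries of an organ (reads divided by each library's size factor), a log2 fold change of Ftsj1_DF against WT with its standard error, and p-values, with no column per library. The summed mean level lay between 128.0 in spleen and 337.9 in kidney, in units of 1000000 reads per library. Ftsj1 itself stood at 8.79% of the WT level in liver and at 9.75% in heart, 14.0% in kidney, 15.4% in brain and 8.98% in spleen, in the authors' deposited tables. Size factors recovered from the lowest mean levels differed by 4.80 times between the deepest and the shallowest library in liver, 6.46 in brain, 11.4 in heart, 18.0 in kidney and 2.14 in spleen. In heart and kidney the deepest library was a WT library, with a size factor of 5.27 and 4.81.

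In liver, the 6 genes made up 1.62% of the summed poly-A level and all Mup features together 4.50%. Per length of exon, Mup3 was the highest, at 7419 reads per 1000000 of the summed level (ppm) and per kb, and it ranked 10 among all features by mean level. Mup7 followed at 4212 and Mup20 at 2525. Mup2 stood at 590, Mup1 at 347 and Mup21 at 291 on the same scale. The lowest of the 6, Mup21, ranked 593 by mean level. The place of Mup7 depended on the genotype: its implied level was above that of Mup20 in WT (1844890 against 553129 normalised reads) and below it in Ftsj1_DF (239691 against 569403). Mup1 and Mup21 are neighbours that the spread between mice, given below for each gene, does not separate. Albumin, fibrinogen and the other hepatocyte markers were abundant in the same libraries, with Alb at 78921 ppm.

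Of the 6 genes, 3 were past the authors' threshold (adjusted p under 0.05) in liver, all lower in Ftsj1_DF, and none was higher. Over all features of the same deposited table, 2.29% were past the threshold, 1.41% lower and 0.887% higher. Since the genes were selected with these values in view, nothing is read from that contrast.

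Mup7 had the lowest log2 fold change of the 6 in the authors' deposited table, -2.94 ± 0.90 (SE), with an adjusted p of 0.0472. The mean level and fold change together imply 13.0% of the WT level, with a 95% interval of 3.83% to 44.1%. That interval is wide because the standard error of Mup7 corresponds to a coefficient of variation of 76.4% between mice of a genotype. Mup7 lay just inside the threshold: adjusted over all features with a p it had 0.0817 and over features with a mean level of 10 or more 0.0502.

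Mup1 and Mup2, which share most of their sequence with Mup7, were also low in Ftsj1_DF. Mup1 had a log2 fold change of -1.73 ± 0.44 (SE) in the authors' deposited table (adjusted p = 0.00794), an implied 30.2% of WT with an interval of 16.6% to 55.1%. Mup2 had -1.49 ± 0.52 (SE) in the same authors' deposited table. It was not past the threshold, with an adjusted p of 0.114 and an implied 35.6% of WT (17.5% to 72.3%). Their standard errors correspond to coefficients of variation of 37.6% and 44.3% between mice, each larger than that of the remaining members.

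Mup21 and Mup3, the other sequence group, had smaller differences and narrower intervals. For Mup21 the authors' deposited table gave -0.92 ± 0.22 (SE), the smallest adjusted p of the 6 genes (0.00240), and an implied 52.8% of WT (39.3% to 70.8%). Mup3, the most abundant of them, had -0.42 ± 0.16 (SE) with an adjusted p of 0.169 in the authors' deposited table, an implied 74.8% of WT (60.4% to 92.7%).

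Mup20, the gene of darcin, was the exception in direction. Its log2 fold change in the authors' deposited table was 0.04 ± 0.23 (SE), an implied 103% of WT with an interval of 75.4% to 140%. A fall to the level of Mup21 or below lies outside that interval, and smaller differences in either direction lie inside it. Coefficients of variation were 19.4% for Mup20, 18.4% for Mup21 and 13.4% for Mup3, close to the 20.3% median of the 23 Mup features with a liver level of 1000 or more. Among 22 abundant secreted hepatocyte proteins the median was 11.2%.

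**Figure D1:**
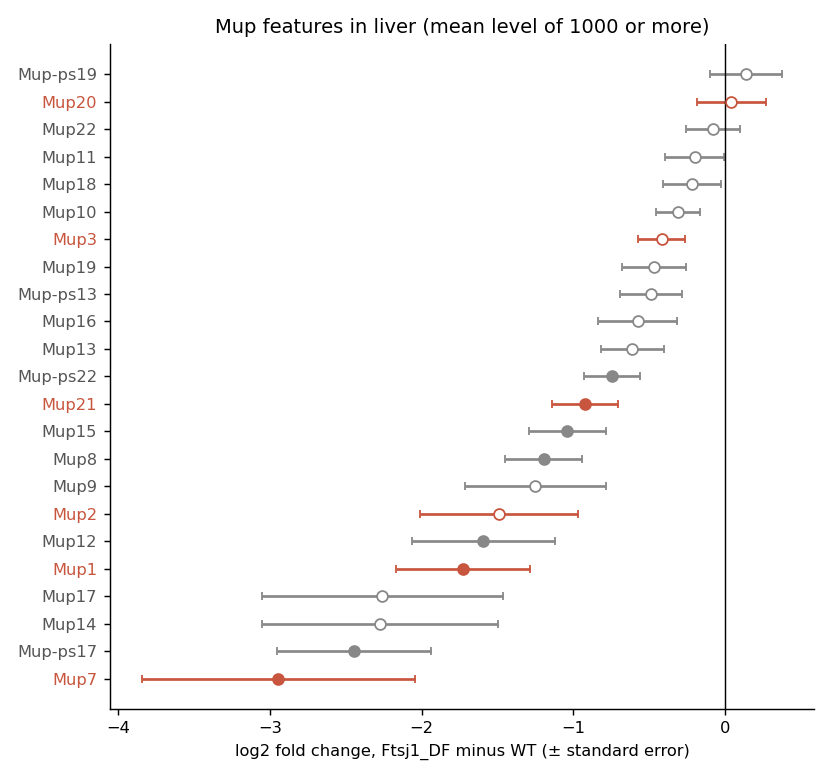
Log2 fold change in liver (x axis, Ftsj1_DF minus WT, from the authors' deposited table) of the 23 Mup features with a mean level of 1000 or more (y axis); bars are standard errors, red marks the 6 genes described here, and filled points are past the authors' threshold. Mup7 is at the lower end at -2.94 and Mup20 at 0.04, next to the line at 0.

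Summed over the 6 genes, the implied level was 5111600 normalised reads in WT and 2626570 in Ftsj1_DF, 51.4% of WT. Over all Mup features it was 59.7% of WT, since several abundant copies outside the 6 differed less. Much of the difference in the sum of the 6 lies in Mup7, with 1844890 in WT and 239691 in Ftsj1_DF. Mup7 also has the largest coefficient of variation of the 6 (76.4%). No interval was derived for these sums or for the shares that follow. The implied composition of the mixture differed as well. Mup7 made up 45.9% of the summed Mup3 and Mup7 level implied for WT and 12.9% of that implied for Ftsj1_DF. Mup20 made up 50.5% of the summed level of Mup1, Mup2, Mup20 and Mup21 in WT and 74.7% in Ftsj1_DF.

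The listed Mup genes outside the 6 leaned the same way. Of 35 on the list, 32 had an adjusted p in liver, 8 fell, none rose, and the median log2 fold change was -0.71 against 0.01 over all features tested, in the authors' deposited table. Those that fell were 25% of the 32, beside 2.29% of all features past the threshold in either direction. The 4 of the list with the smallest adjusted p were Mup-ps20 (-1.92 ± 0.30 SE), Mup-ps14 (-1.65 ± 0.29), Mup-ps12 (-1.51 ± 0.30) and Mup8 (-1.20 ± 0.25), all from the authors' deposited table. The list leaves out some Mup pseudogenes. Of these, Mup-ps17 (-2.44 ± 0.51 SE) and Mup-ps11 (-1.97 ± 0.45) were also lower and past the threshold in the authors' deposited table. Over all 49 Mup features, the 6 included, 13 were past it. Reads of such copies may be shared with the 6 and with each other, which no table measures, so they are not taken as separate evidence. The pseudogene Mup-ps22, at a liver level of 1566080, fell to an implied 59.7% of WT. Its 243 annotated bases are 90.1% identical to Mup20 and less to the other members.

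Near-identical copies differed widely in their fold changes. Over the 15 Mup genes whose coding sequence is 98% identical to Mup7 or more, the log2 fold change in the authors' deposited table ran from -2.27 in Mup14 to -0.08 in Mup22, with a median of -1.04. Mup22, which differs from Mup7 at 6 coding bases, had a level of 1138590 and an implied 94.8% of WT. Mup14, which differs at 5, had an implied 20.7% of WT. Its log2 fold change of -2.27 ± 0.78 (SE) was not past the threshold in the authors' deposited table (adjusted p = 0.0999). Another 6 Mup genes below 98% identity, among them Mup3, Mup20 and Mup21, ran from -0.92 to 0.04. Mup9 and Mup11 were compared over 285 annotated bases only. These values are description only.

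**Figure D2:**
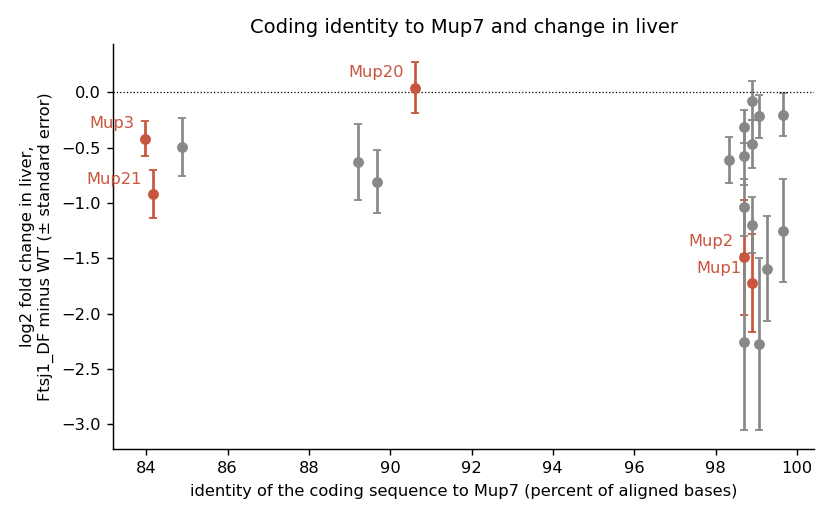
Identity of the coding sequence to Mup7 (x axis, percent of aligned bases, GENCODE M21) against the log2 fold change in liver (y axis, Ftsj1_DF minus WT, from the authors' deposited table, bars are standard errors) for 21 Mup genes, with the members in red. The 15 copies at 98% identity or more spread from -2.27 to -0.08.

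Other genes of the axes that act on Mup genes were taken from lists drawn up for this work, with earlier results of these data known. A list of growth hormone and IGF signalling held 18 genes, among them receptors of other hormones. Its median log2 fold change in liver was 0.12, against 0.01 over all features, in the authors' deposited table. Of the 18, 2 rose and none fell, in the authors' deposited table. They were Lepr, the leptin receptor (1.15 ± 0.25 SE), and Prlr, the prolactin receptor (0.73 ± 0.20 SE), whose adjusted p were 0.000582 and 0.0134, both from the authors' deposited table. Past the threshold were 11.1% of this list, beside 2.29% of all features tested in liver. That share comes from these 2 receptors of other hormones alone. The other 16 genes, with those of growth hormone and IGF proper among them, were not past it. The growth hormone receptor Ghr (-0.18 ± 0.12 SE), its transcription factor Stat5b (0.0048 ± 0.16) and its secreted effector Igf1 (0.12 ± 0.13) were not past the threshold in the authors' deposited table. Socs2, a feedback inhibitor that STAT5B induces, had 1.17 ± 1.11 (SE) in the authors' deposited table, an error too wide to place it on either side of 0.

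Further factors that act on Mup promoters were looked up by name. The glucocorticoid receptor Nr3c1 (0.11 ± 0.14 SE) and Zhx2, a repressor of liver genes that are silenced after birth (-0.04 ± 0.15), were not past the threshold in the authors' deposited table.

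Lists of liver genes that differ between the sexes in mice were examined next. Of 25 tested genes that are usually higher in males, 4 fell and none rose, with a median of -0.60, in the authors' deposited table, and 4 of the 25 had a log2 fold change above 0. They were Susd4 (-0.91 ± 0.17 SE), Cyp2d9, a steroid hydroxylase (-0.74 ± 0.19), Cyp2u1 (-0.96 ± 0.26) and Serpina12, which encodes the adipokine vaspin (-1.84 ± 0.50), as the authors' deposited table has them. Of 30 tested genes that are usually higher in females, 9 rose and none fell, with a median of 0.70, in the authors' deposited table, and 2 of the 30 were below 0. The smallest adjusted p belonged to the cytochromes P450 Cyp2c40 (1.98 ± 0.25 SE) and Cyp4a10 (1.64 ± 0.24), the peroxisomal transporter Abcd2 (1.30 ± 0.27) and the flavin monooxygenase Fmo2 (0.81 ± 0.17), again from the authors' deposited table. The shares past the threshold were 16.0% (all lower) and 30.0% (all higher), beside 1.41% lower and 0.887% higher over all features. Since the lists were chosen with earlier results of these data known, nothing is read from these contrasts.

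Secreted proteins that hepatocytes make in large amounts served as a comparison. None of 22 tested secreted hepatocyte proteins was past the authors' threshold, 2 had an unadjusted p under 0.05, and the median was -0.01, in the authors' deposited table. Alb, for albumin, had -0.01 ± 0.15 (SE) in the authors' deposited table. Of 12 other tested lipocalins, 1 fell, the acute-phase glycoprotein gene Orm3 (-0.80 ± 0.23 SE), in the authors' deposited table. Of 16 pericentral genes Tbx3 rose (0.75 ± 0.15 SE), and of 17 periportal genes Ctsc rose (0.76 ± 0.14) and Arg1 fell (-0.39 ± 0.12), in the authors' deposited table. The shares past the threshold were 8.33% of these lipocalins, 6.25% of pericentral and 11.8% of periportal genes, beside 2.29% over all features. No salivary or lachrymal gland gene (2 tested) and no urinary protein receptor (3 tested) was past the threshold, with 0 and 1 at an unadjusted p under 0.05. In whole tissue, fewer cells of a type and less RNA per cell cannot be told apart.

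**Figure D3:**
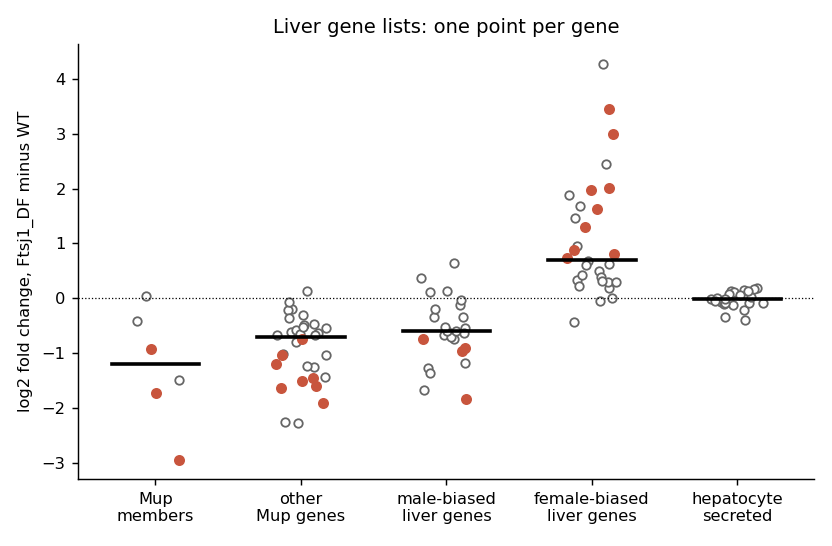
Log2 fold change in liver (y axis, Ftsj1_DF minus WT, from the authors' deposited table) for each tested gene of 5 lists (x axis); filled red points are past the authors' threshold and black lines are medians. Medians are -1.21 for the 6 Mup genes, -0.71 for the other Mup genes, -0.60 for male-biased, 0.70 for female-biased and -0.01 for secreted hepatocyte genes.

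Outside the liver the levels of the 6 genes were far lower. They summed to 16153 ppm of the summed level in liver, 2.47 in heart, 0.378 in kidney, 0.0620 in spleen and 0.0375 in brain. Per length of exon, Mup3 was the highest of the 6 in all 5 organs, with 0.989 ppm per kb in heart, 0.152 in kidney, 0.0319 in spleen and 0.0142 in brain. Mup7 was next to it in heart (0.932) and kidney (0.141), and since most reads lay in 1 or 2 libraries, as given below, these neighbours cannot be ordered. No member was past the authors' threshold in heart (0 of 5 with an adjusted p), kidney (0 of 3), brain or spleen (none with an adjusted p). An unadjusted p under 0.05 was found for 4 of the 6 in heart, 2 in kidney, 1 in spleen and 0 in brain. Among members with an adjusted p these were 3 of 5 in heart and 1 of 3 in kidney. Of all features with an adjusted p, 8.36% in heart, 5.83% in kidney, 6.29% in spleen and 2.94% in brain had such a p. The share of all features past the threshold was 0.541% in heart, 0.987% in kidney, 0.0607% in brain and 0.0741% in spleen.

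**Figure D4:**
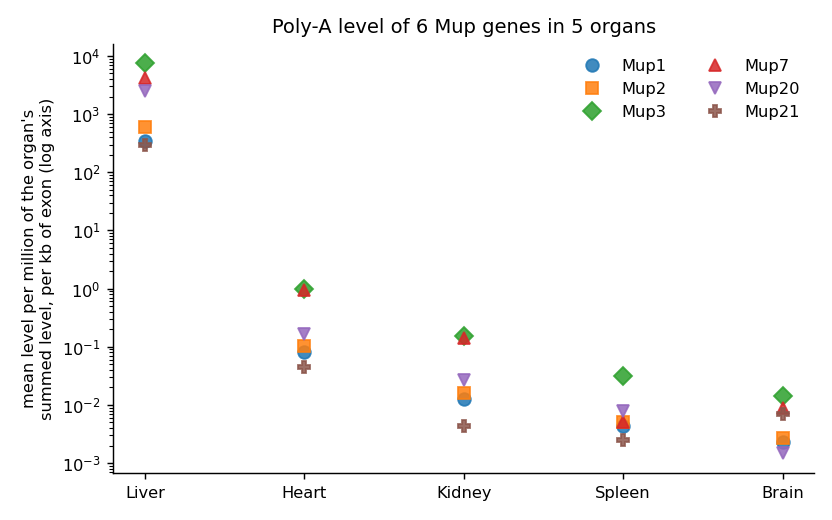
Mean poly-A level of each of the 6 genes in 5 organs (x axis), in ppm of the organ's summed level per kb of exon (y axis, log axis), 1 point per gene. Liver levels of 291 to 7419 stand above every value elsewhere, of which the highest is 0.989, for Mup3 in heart.

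Levels this low let the reads of each library be recovered, because a mean level is a sum of whole reads, each worth a fixed amount in its library. All 121 Mup features below a mean level of 60 had a single solution, and whether a library entered the authors' fit as Ftsj1_DF or WT follows from the sign that its reads give to the deposited fold change. Libraries are called A, B and C within a genotype, from the deepest down. The letters name no mouse and do not link organs.

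In heart, nearly all Mup reads lay in 2 WT libraries. Mup20 had 273, 67 and 0 reads in WT libraries A, B and C and 15, 1 and 0 in the Ftsj1_DF libraries. Mup2 had 306, 60 and 0 reads in WT and 5, 0 and 1 in Ftsj1_DF, and Mup1 had 201, 74 and 0 in WT and 2, 1 and 0 in Ftsj1_DF. Mup21 had 67, 15 and 0 reads in WT and none in Ftsj1_DF. The 3 WT libraries thus did not resemble each other: A and B were high and C, with 0 reads of all 4 genes, was below Ftsj1_DF library A. After division by size factors, the 4 genes summed to 161, 193 and 0 in WT and to 20.5, 4.15 and 2.17 in Ftsj1_DF. WT libraries A and B held 92.9% of that total. Mup3 and Mup7 were too high in heart to be resolved. Their log2 fold changes were -2.52 ± 2.09 and -5.68 ± 2.53 (SE) in the authors' deposited table.

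Transcripts of hepatocytes were high in the same heart libraries. Serpina1a, which encodes an alpha-1-antitrypsin of liver, had 753, 217 and 0 reads in WT libraries A, B and C and 22, 0 and 0 in the Ftsj1_DF libraries. The 6 secreted hepatocyte genes that could be resolved (Ambp, Apoc3, Apoh, Fgg, Hpx and Serpina1a) summed to 639, 755 and 13.6 normalised reads in WT and to 179, 24.9 and 0 in Ftsj1_DF. Of the 22 listed hepatocyte genes tested in heart, 21 had a log2 fold change below 0, 9 an unadjusted p under 0.05 and none an adjusted p under the threshold, with a median of -2.56, in the authors' deposited table. Over all features tested in heart, 8.36% had an unadjusted p under 0.05. Alb had a mean level of 1116 there and a log2 fold change of -2.84 ± 2.53 (SE) in the authors' deposited table. The part of these transcripts in the heart values of the Mup genes was not tested.

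In kidney, 1 WT library held most of the reads. Mup7 had 65, 281 and 2 reads in WT libraries A, B and C and 4, 0 and 0 in the Ftsj1_DF libraries. Mup3 had 66, 257 and 0 in WT and 46, 11 and 5 in Ftsj1_DF, so its reads were found in all 3 Ftsj1_DF libraries and the groups overlapped. Mup20 had 11, 34 and 0 reads in WT and 1, 0 and 4 in Ftsj1_DF. Mup2 had 25, 30 and 4 reads in WT and 5, 0 and 0 in Ftsj1_DF, while Mup1 had 13, 22 and 0 and 6, 1 and 3. Mup21 was counted only in WT library B, with 6 reads.

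Divided by size factors, the 6 genes summed to 37.4, 620 and 9.34 in the WT kidneys and to 41.0, 14.95 and 44.8 in the Ftsj1_DF kidneys. WT library B held 80.8% of the total, and the other WT libraries were within the range of the Ftsj1_DF libraries or below it. The mean was 222 in WT and 33.6 in Ftsj1_DF with that library, and 23.4 in WT without it, which turns the direction. Ahsg, the hepatocyte gene of fetuin-A, also peaked in this library, with 43, 178 and 0 reads in WT and 11, 2 and 8 in Ftsj1_DF. Hpx, the hemopexin gene, had 215, 116 and 23 reads in WT and 75, 31 and 12 in Ftsj1_DF. Divided by size factors, Ahsg and Hpx together came to 53.6, 289 and 35.8 in WT and 56.9, 41.1 and 74.7 in Ftsj1_DF. The 20 other tested hepatocyte genes of the list had levels too high to resolve in kidney. Of all 22 tested, 12 had a log2 fold change below 0 and 10 above it, 4 fell, 1 rose and the median was -0.01, in the authors' deposited table. The share past the threshold was 22.7%, beside 0.987% of all features tested in kidney. Among the hepatocyte markers, Ttr (-1.14 ± 0.12 SE) and Serpina1a (-1.08 ± 0.16) were lower and past the threshold in the same authors' deposited table. Not past it there were Alb (-0.05 ± 0.13 SE), Apoa1 (-0.67 ± 0.34), Apoa2 (-0.02 ± 0.15) and Fgb (0.36 ± 0.18). The part of such transcripts in the Mup values was not tested.

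The proportion between Mup7 and Mup3 in a library is left unchanged only by a scaling common to both genes. In kidney, Mup7 made up 65 of the 131 reads of both genes in WT library A (49.6%, exact 95% interval 40.8% to 58.5%) and 281 of 538 in WT library B (52.2%, 47.9% to 56.5%). It made up 4 of 50 in Ftsj1_DF library A (8%, 2.22% to 19.2%), 0 of 11 in library B (0% to 28.5%) and 0 of 5 in library C (0% to 52.2%). WT library C held only 2 reads, both of Mup7. In the libraries with 50 reads or more, Mup7 was therefore close to an equal share in WT and a minor share in the Ftsj1_DF library. That is a single Ftsj1_DF library, which says nothing of the genotype as a group. The levels implied for liver gave 45.9% in WT and 12.9% in Ftsj1_DF, and those for heart 51.2% and 10.6%. These intervals cover counting error only, and they are too narrow, because read numbers were mostly even (984 even against 330 odd among kidney features with 2 to 7 reads in a single library), so single reads were not independent of each other.

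The share of Mup20 in heart could be read in 3 libraries. It made up 273 of 847 reads of Mup1, Mup2, Mup20 and Mup21 in WT library A (32.2%, 29.1% to 35.5%) and 67 of 216 in WT library B (31.0%, 24.9% to 37.6%). In Ftsj1_DF library A it made up 15 of 22 (68.2%, 45.1% to 86.1%), a single library with few reads that says nothing of the genotype as a group. The remaining heart libraries held at most 2 reads of these genes and give no usable share.

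**Figure D5:**
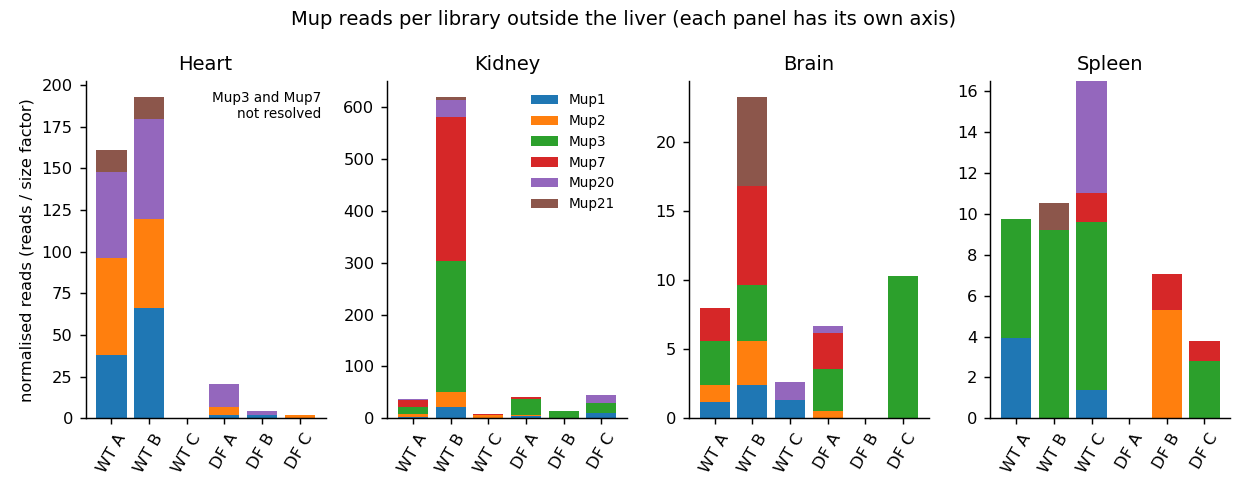
Reads of the 6 genes divided by the size factor (y axis, stacked by gene) in each poly-A library (x axis; DF stands for Ftsj1_DF, letters run from the deepest library down within a genotype) of heart, kidney, brain and spleen, with an axis of its own for each organ and without Mup3 and Mup7 in heart. The high columns are WT libraries A and B in heart (161 and 193) and WT library B in kidney (620).

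In brain and spleen the reads were too few for a comparison. In brain, Mup3 had 8, 5 and 0 reads in WT and 6, 0 and 4 in Ftsj1_DF, and Mup7 had 6, 9 and 0 and 5, 0 and 0. Mup21 had 8 reads, all in WT library B, and Mup1, Mup2 and Mup20 had at most 4 reads in any library. In spleen, Mup3 had 6, 7 and 6 reads in WT and 0, 0 and 3 in Ftsj1_DF. The other 5 genes had at most 6 reads in any spleen library. A count of 0 allows up to 3 reads, so absence of a transcript cannot be read from these libraries.

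Genes with fold changes most like those of the 6 were sought over heart and liver, where at least 3 of the 6 had a mean level of 10 or more, among 18072 genes with such a level in both. By the root mean square difference from the median of the 6, which was -4.28 in heart and -1.21 in liver, the nearest were Mup9 (0.11), Serpina1e (0.37), Mup12 (0.42), Mup19 (0.55) and Bhmt (0.59). Serpina1e had -3.78 ± 1.68 (SE) in heart and -1.36 ± 0.68 in liver, in the authors' deposited tables. Bhmt, for the betaine-homocysteine methyltransferase of liver, had -4.89 ± 1.18 and -0.64 ± 0.20 in the authors' deposited tables. Only 2 organs enter this likeness, and the heart values rest on the 2 WT libraries described above.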

How the data were processed

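Per the labels, poly-A libraries were made with a stranded mRNA kit from whole powdered tissue. Per the submitters' processing notes, the authors used GRCm39, featureCounts of Subread 2.0.3 and DESeq2, with settings that the notes used here leave out. The deposited tables give, per organ, a mean normalised level (a signal averaged over 6 libraries), a log2 fold change and its standard error, a test score (the fold change divided by that error) and p-values, as raw and as adjusted by the authors. The tables hold no column per library, and depth is known only from the size factors.

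Features were taken as called at the authors' adjusted p under 0.05. With Python 3.11.15, numpy 2.4.6 and pandas 2.3.3, group levels were derived from the mean level and the fold change, with 95% intervals of 1.96 standard errors. Coefficients of variation follow from the standard error at 3 mice a group and include any moderation of dispersions by the authors' tool. Size factors were read from the 6 lowest levels shared by 20 features or more, and levels below 60 were split into whole reads at a tolerance of 1e-13 (2e-14 up to a level of 5). In simulated data all 60 of 60 such features were recovered in each organ, and in the real tables the sign of 69 of 69 fold changes past 1, of Mup and hepatocyte genes with a mean level above 1, matched the recovered group means. Signs at lower levels can differ. Exon lengths are from GENCODE M21 and do not match the authors' build. The entry with no name held at most 0.000198% of the summed level.

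The members and the gene lists were chosen with earlier results of these data known. Named genes were the 6 members and Ftsj1 in every organ, up to 4 genes of each list past the threshold in liver with the smallest adjusted p, Ghr, Stat5b, Igf1, Socs2, Nr3c1, Zhx2 and Alb whatever their values, and the 5 genes most like the members. The counts of the list of hormone receptors and promoter factors are not reported here. Genes named outside this rule (Mup-ps22, Mup-ps17, Mup-ps11, Mup22, Mup14, Mup5, Mup6, Serpina1a, Apoa1, Apoa2, Ttr, Fgb, Ahsg, Hpx) were picked after their values were seen. P-values measure the spread between 3 mice a genotype, and the batch label was 1 throughout. The rRNA-depleted libraries were not used here.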

Additional observations from a re-analysis of the deposited data

How the results depend on the processing

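No paired analysis was possible because the deposited tables hold no column per mouse and the recovered libraries are known by genotype only. For the same reason no fit could be repeated without a mouse, and the liver values of the 6 members could not be split by library. Under adjustment over all features with a p, over features with a level of 10 or more, or over the 5 organs together, the liver count of members fell from 3 to 2, Mup7 being lost each time (adjusted p 0.0817, 0.0502 and 0.175). Mup1 and Mup21 kept theirs, with 0.0321 and 0.0104 over the 5 organs. Adjustment over the 5 organs left 1 gene of the growth hormone list (2 as deposited), 2 of the male-biased list (4), 0 lipocalins (1) and 1 periportal gene (2), and adjustment over all features with a p also left 1 periportal gene. Summing all Mup features moved the log2 ratio in liver from -0.96 to -0.75. The few gland genes with a level of 10 or more had a median of 1.26 against 0.06 for those tested. Without mitochondrial genes the share of the 6 rose to 17763 ppm in liver. Leaving out 1 library at a time, the log2 ratio of the members' normalised reads ran from -5.22 to -3.17 in heart (-3.72 with all), -3.29 to 0.52 in kidney (-2.73), -1.76 to 0.092 in brain (-0.997) and -2.70 to -1.18 in spleen (-1.76). It reversed without WT library B in kidney (0.52) and in brain (0.092).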

Other observations

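The Mup reads of brain were mostly of genes outside the 6 members, which held 10.8% of the family's mean level there. Mup5, a Mup gene known from glands and nasal tissue, led with a mean level of 29.1 and 72, 55 and 34 reads in WT libraries A, B and C and 45, 9 and 7 in the Ftsj1_DF libraries. Divided by size factors these were 28.6, 44.0 and 45.2 in WT and 23.1, 15.9 and 18.0 in Ftsj1_DF. The log2 fold change of Mup5 was -1.01 ± 0.61 (SE) in the authors' deposited table, with an adjusted p of 0.999938. Mup6 had 43, 3 and 3 reads in WT and 31, 2 and 5 in Ftsj1_DF, so its reads lay mainly in the deepest library of each genotype. Mup-ps22 had 37 of its 68 brain reads in Ftsj1_DF library B.

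A low-level liver copy could be read by library. Mup-ps3 had 90, 152 and 20 reads in WT libraries A, B and C and 32, 30 and 6 in the Ftsj1_DF libraries, or 45.3, 94.2 and 48.3 normalised reads in WT and 21.5, 39.1 and 8.85 in Ftsj1_DF. The log2 fold change of Mup-ps3 was -1.44 ± 0.52 (SE) in the authors' deposited table, with an adjusted p of 0.127. These values were picked after they were seen and are given with no test.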
